A study of Mus musculus with 2 samples.

Results

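Malat1, Neat1 and Meg3 are long noncoding RNAs that are known to stay largely in the nucleus, and they were examined here in crosslinked RNA from a cytoplasmic fraction. Each was represented by 1 window of the mm9 mouse genome on the strand of the gene, and a read counted when it lay wholly inside the window on that strand. The windows were chromosome 19 from 5795000 to 5803500, minus strand, for Malat1, chromosome 19 from 5824000 to 5846500, minus strand, for Neat1, and chromosome 12 from 110778000 to 110812000, plus strand, for Meg3. They were 3 of 6636 regions compared, the others being 10-kb tiles of 1 strand that held at least 1 read.

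The series holds 2 iCLIP libraries, 1 per antibody, from mouse forebrain neurons kept for 14 days in vitro. In iCLIP, ultraviolet light joins a protein to the RNA it touches, the protein is precipitated with its RNA, and the base just upstream of a read marks the contact. The cultures received 254 nm light at 500 mJ/cm2 and were opened on ice for 1 min in 0.1% Triton X-100 with 150 mM NaCl, and the released material was precipitated with antibodies against Rbfox1 or, as the control, against the Flag epitope. No genotype, strain or transgene is given in the labels. The deposited files list 64820 reads for anti-Rbfox1 and 569 for anti-Flag. Neither antibody was replicated, and the intervals given are exact Clopper-Pearson 95% intervals that cover counting error only.

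Malat1 is an abundant transcript that is concentrated in nuclear speckles, the bodies where splicing factors gather. Neat1 is the scaffold of paraspeckles, and its longest form is needed to build them. Meg3 is an imprinted RNA expressed from the maternal chromosome and is abundant in neurons. Rbfox1 binds the RNA motif GCATG (written here with T for U), most often as TGCATG, and its nuclear forms regulate splicing while its cytoplasmic forms bind mRNA.

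All 3 RNAs carry the motif, and the sites printed here show what an Rbfox protein could meet in each of them. They are the first 3 TGCATG matches from the 5′ end of the longest GENCODE M21 transcript of each gene (GRCm38), read 5′ to 3′ on the transcript strand, with the motif in capitals and 12 bases on each side. The motif began at bases 1410, 3874 and 4669 of Malat1-201, at 1350, 6817 and 6845 of Neat1-201 and at 2161, 4841 and 5524 of Meg3-209.
Malat1-201 site 1: cagcagcagcagTGCATGgtgaagatagcc
Malat1-201 site 2: gatctgcagtatTGCATGttagggatagat
Malat1-201 site 3: catttccaaataTGCATGttgagtttaaat
Neat1-201 site 1: attctttgcggaTGCATGaatggcagcagg
Neat1-201 site 2: tttctttgtagtTGCATGtattatttcttg
Neat1-201 site 3: tgtgtgtgtgtgTGCATGcttccactcatc
Meg3-209 site 1: tacatcacataaTGCATGtttagctgggtg
Meg3-209 site 2: cgatgtttgcttTGCATGtgtaatacaatt
Meg3-209 site 3: tgtggagatgatTGCATGaatagggggcgc

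Among the longest transcripts of each gene, that of Meg3 had the highest density of both motifs, but its GCATG density was close to that of Malat1. The order was not worked out for the shorter transcripts. Malat1-201, of 6983 nt, held 10 GCATG, of which 3 were TGCATG, or 1.43 and 0.430 per kb. Neat1-201, of 20771 nt, held 19 and 9, or 0.915 and 0.433 per kb. Meg3-209, of 14548 nt, held 21 and 10, or 1.44 and 0.687 per kb. Every TGCATG match is also counted as a GCATG match, and only the transcript strand was searched.

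Transcripts of like length, within 10% of each member, gave the setting for these densities. Among 1781 transcripts as long as Malat1-201, 99.7% held at least 1 GCATG and 84.8% at least 1 TGCATG, and 13.8% and 26.2% were at least as dense as Malat1. Among 169 as long as Meg3-209, 100% held GCATG and 98.2% TGCATG, and 4.14% and 2.96% were at least as dense as Meg3. Only 20 transcripts were as long as Neat1-201. All of them held both motifs, and 35% and 5% were at least as dense as Neat1. The shorter models differ from the longest: Meg3-201, of 1988 nt, held 1 GCATG and 0 TGCATG, and of the 11 Meg3 transcripts 7 held GCATG and 3 TGCATG. Over all 141767 transcripts the shares with a match were 62.4% and 32.2%. A match is a stretch of letters and not a measured site.

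**Figure D1:**
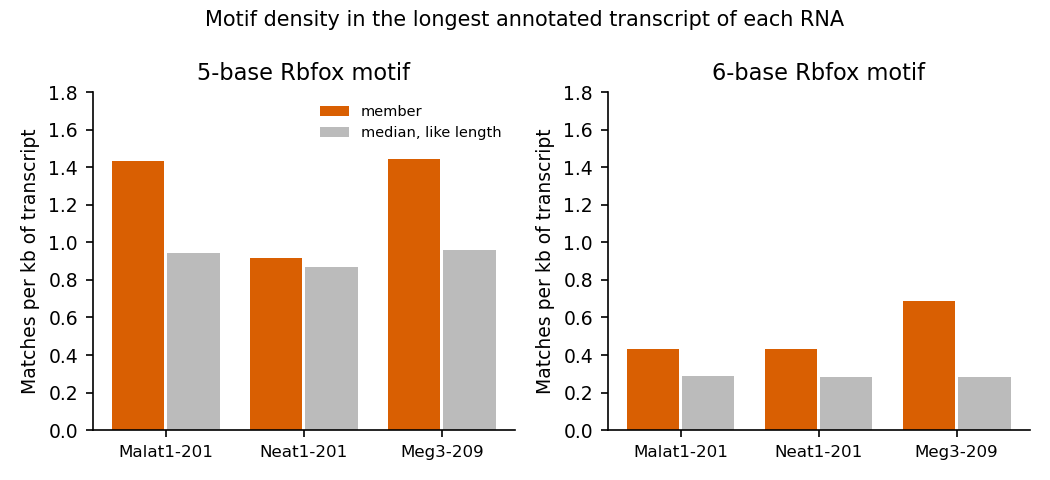
Matches per kb (y axis) of the 5-base motif GCATG (left) and the 6-base motif TGCATG (right) in the longest transcript of each RNA (orange) and the median over transcripts of like length (grey). Malat1-201 and Meg3-209 stand at 1.43 and 1.44 GCATG per kb, and all 3 RNAs lie above their grey bars for both motifs.

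The first comparison asked whether the nuclear RNAs appear among the deposited reads of the cytoplasmic fraction. Malat1 and Neat1 were at 0 in both libraries, and Meg3 was the only member with reads, all of them in the anti-Rbfox1 library. Malat1 held 0 of 64820 anti-Rbfox1 reads, and a limit of 3 reads corresponds to a share of 0.00463%. Of the 569 anti-Flag reads it also held 0, for a limit of 0.527%. Neat1 held 0 and 0, with the same limits.

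Meg3 held 31 anti-Rbfox1 reads, 0.0478% of the library (0.0325 to 0.0679), at 25 crosslink positions, and 0 anti-Flag reads. The anti-Rbfox1 reads came to 0.912 per kb of the Meg3 window. Counted by clusters the share was lower, 0.0296% (3 of 10134 clusters). The limit of 3 reads corresponds to 0.353 reads per kb over Malat1 and 0.133 over Neat1. These are densities over windows of genomic sequence, with any introns included, and not over mature RNA. The longest annotated transcript was 6983 nt for the 8.5-kb Malat1 window and 20771 nt for the 22.5-kb Neat1 window. For the 34-kb Meg3 window it was 14548 nt, a smaller part of the window, so the Meg3 density and the 2 limits have unlike bases. Reads that lie in the same cluster are not independent, and the Meg3 density rests on 3 clusters.

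**Figure D2:**
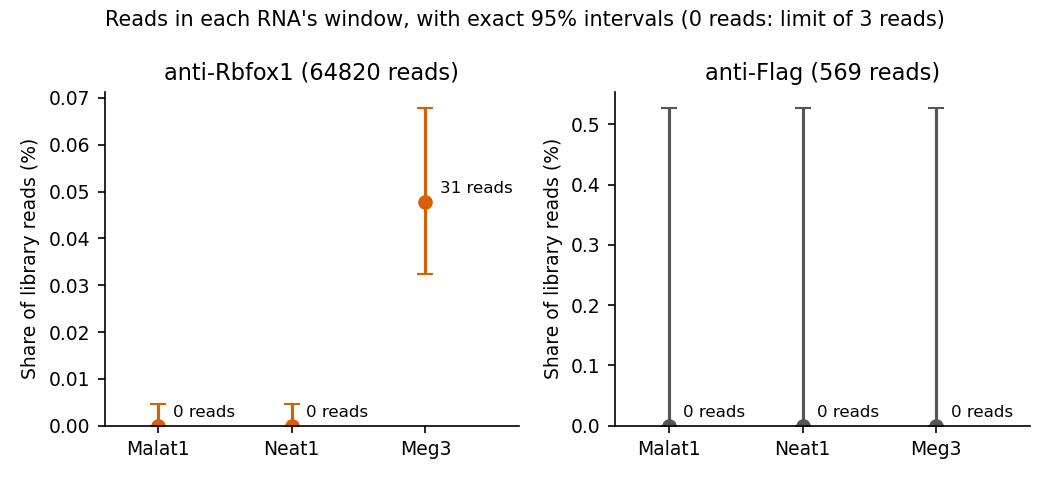
Share of library reads (y axis, %) in each RNA's window in the anti-Rbfox1 library (left) and the anti-Flag library (right), with an exact 95% interval for Meg3 on the left and bars up to the limit of 3 reads where 0 were found. The y axes differ: that limit is 0.00463% on the left and 0.527% on the right, above the whole Meg3 interval of 0.0325 to 0.0679%.

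The places around the windows were empty as well. No window held a read on its opposite strand, and the 10 kb on each side of the windows held 0 reads on either strand in both libraries. The nearest anti-Rbfox1 read to Malat1 on either strand lay 301.02 kb before the window, and the nearest after Neat1 lay 381.5 kb beyond it, with none in between. Around Meg3 the nearest reads outside the window were 507.0 kb before and 742.6 kb after it. Chromosome 19 as a whole held 1344 anti-Rbfox1 reads and chromosome 12 held 3006.

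An empty window was the usual state of the genome in these files. Between the first and last reads of each chromosome, 98.9% of 8.5-kb tiles and 97.4% of 22.5-kb tiles held 0 anti-Rbfox1 reads, counted on each strand without regard to genes. The tiles include sequence that is not transcribed, whereas Malat1 and Neat1 are genes known to be expressed in brain. RNA levels of these cultures were not analysed here, so the 0 counts could not be set against the amount of each RNA.

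Meg3 stood in the upper part of the occupied regions. Among 5635 occupied tiles of 34 kb, the median was 3 reads, the upper quartile 6 and the highest 979, and 386 (6.85%) held at least the 31 reads of the Meg3 window. The tiles were cut without regard to genes and the Meg3 window was placed on a gene, so the share is a description. The places most like Meg3 in both counts were 9 tiles with 31 anti-Rbfox1 and 0 anti-Flag reads. They included chromosome 10 from 86292001 to 86326000 on the plus strand, and chromosome 11 from 115872001 to 115906000 and from 116178001 to 116212000, both on the minus strand. These places are given by position only.

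**Figure D3:**
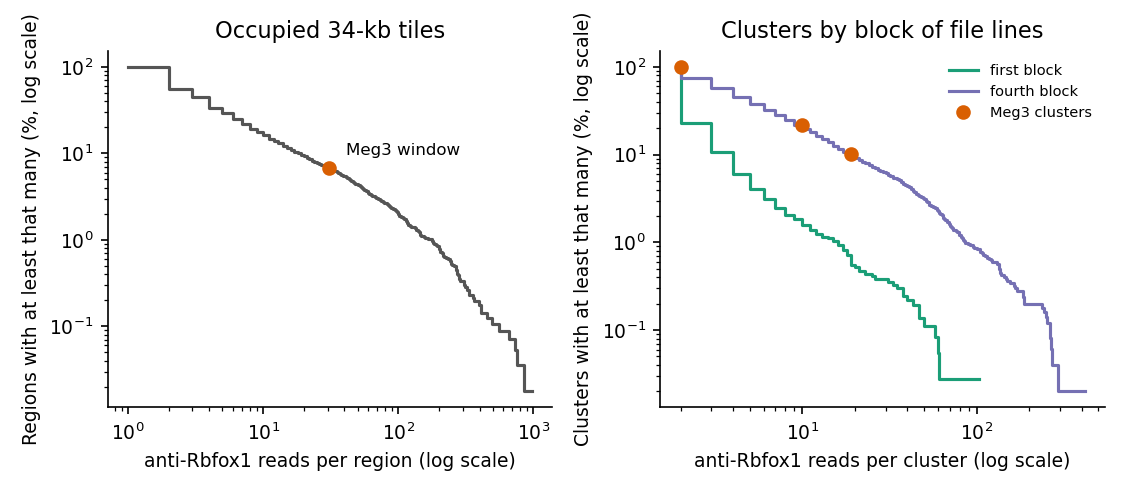
Left, share of occupied 34-kb tiles (y axis, %, log scale) that held at least a given number of anti-Rbfox1 reads (x axis, log scale), with the Meg3 window marked at 31 reads and 6.85%. Right, the same for clusters in the first block and the fourth block of file lines, with the 3 Meg3 clusters of 2, 10 and 19 reads marked on the curve of their own block.

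The second comparison asked where on Meg3 the contacts lay. The reads formed 3 clusters, in which neighbouring crosslink positions on 1 strand were no more than 20 nt apart, and together they covered 199 nt of the 34-kb window. They lay within 2024 nt of each other, from 110781463 to 110783486. The window began 3.46 kb before the first read and went on for 28.5 kb after the last without a further read. Exon or intron was not assigned, because no annotation of the mm9 build was at hand.

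The deepest cluster lay furthest 3′, from 110783405 to 110783486, with 19 reads (61.3% of the Meg3 reads) at 14 crosslink positions spread over 40 nt. Its most used position was 110783404, with 3 reads, and 3 other positions held 2 reads. The reads ended at 17 different 3′ ends and were between 17 and 50 nt long. Up to 14 of the 19 reads covered the same bases, those from 110783440 to 110783446.

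The middle cluster was more compact. It ran from 110782836 to 110782896, 508 nt before the deepest one, with 10 reads (32.3%) at 9 crosslink positions within 20 nt. Its most used position, 110782841, held 2 reads. All 10 reads covered the 13 bases from 110782855 to 110782867. The first cluster, from 110781463 to 110781518, held 2 reads at 2 positions and lay 1317 nt before the middle one. Over all 25 positions, 20 held 1 read, 4 held 2 and 1 held 3.

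**Figure D4:**
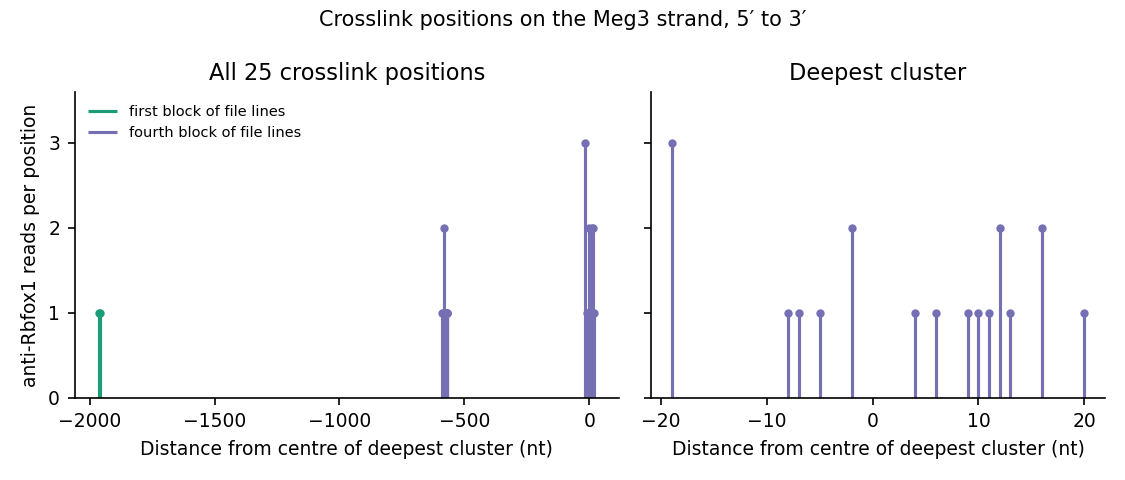
Anti-Rbfox1 reads per crosslink position (y axis) against the distance in nt from the centre of the deepest Meg3 cluster (x axis), for all 25 positions (left) and the deepest cluster alone (right), coloured by block of file lines. The positions fall into 3 separate groups, and within the deepest one the position with 3 reads is the one furthest 5′.

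The Meg3 reads were of ordinary length for the library. Their median was 30 nt (interquartile range 24.5 to 38.5), against 28 nt (23 to 35) over the anti-Rbfox1 library. With no more than 3 reads at a position, and with no exact copies among the deposited reads, the heights of single positions say little about how often each base was contacted.

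The lines of the anti-Rbfox1 file fall into 11 blocks, in each of which the chromosome order starts anew, whose meaning no label or header states. Meg3 reads were found in the first and the fourth. The first block held the cluster of 2 reads, 0.0200% of its 10007 reads (0.00242 to 0.0722). The fourth held the clusters of 10 and 19 reads, 0.0603% of its 48064 reads (0.0404 to 0.0866). The intervals of the shares overlap, but they treat reads of the same cluster as independent. A difference between the blocks was not tested. Malat1 and Neat1 were at 0 in each of the 11 blocks and in each of the 7 blocks of the anti-Flag file.

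Both Meg3 clusters of 10 reads or more lay in the fourth block. In the whole library 12.3% of 10134 clusters held 10 reads or more, while 2 of the 3 Meg3 clusters did, too few to set against that share. In the fourth block that share was 22% of 4980 clusters, and the Meg3 cluster of 19 reads was matched or exceeded by 512 of them (10.3%). In the first block all 3634 clusters held at least 2 reads, so the first Meg3 cluster was of the smallest size there. The deepest cluster of the library held 416 reads.

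A further question was whether anti-Rbfox1 and anti-Flag differed at these RNAs. None of the 3 members passed a two-sided Fisher's exact test of reads inside and outside the window (adjusted p = 1 for each, Benjamini-Hochberg over 6636 regions), against 2.71% of all regions. For Malat1 and Neat1, with 0 reads in both libraries, that outcome was fixed in advance. With only regions of at least 5 reads tested, 29 of 1853 were called and Meg3 again was not. Of the 180 regions called, 1 had the higher share in the anti-Rbfox1 library (0.0151% of all regions). Meg3 showed 31 reads against 0, but at an equal share of both libraries only 0.272 anti-Flag reads would fall in its window. With 0 anti-Flag reads, a region would have needed 433 anti-Rbfox1 reads for an unadjusted p under 0.05. The control could therefore not show an anti-Rbfox1 excess at Meg3 at this depth. It also could not show a lack of one, because the limit of 3 reads on its 0 is a share of 0.527%, above that of Meg3 in the anti-Rbfox1 library. The test speaks of this pair of libraries only, since neither antibody was replicated.

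No anti-Flag read shared a base with any of the 3 Meg3 clusters. Over the whole anti-Rbfox1 library 0.572% of clusters shared a base with an anti-Flag read, so clusters without one are the rule. Among the 386 tiles of 34 kb with at least as many anti-Rbfox1 reads as Meg3, 347 (89.9%) held 0 anti-Flag reads.

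As a check of the cytoplasmic fraction, the windows gave 0 reads at both RNAs of nuclear bodies and 31 reads at Meg3. In both files no pair of reads shared start, end and strand (0 duplicates) and each cluster held at least 2 crosslink positions. Exact copies and lone reads were thus absent from the deposited reads. Near-copies were not: counting reads with a shared 3′ end and crosslinks 1 nt apart as 1 left 400 of 569 anti-Flag reads. In anti-Rbfox1 it left 57719 of 64820. Any reads left out before deposit were not analysed here, and 0 deposited reads is not 0 sequenced reads. No label or header states whether the reads had been limited to some classes of annotated transcript. If they had, the 0 counts at Malat1 and Neat1 could follow from that step. This was not tested. A nuclear fraction or RNA before precipitation was not analysed here either. Whether the Meg3 reads came from RNA in the cytoplasm or from nuclear RNA released during lysis was not tested.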

How the data were processed

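Per the submitters' processing notes, the authors used Bowtie and the mm9 build. Versions, mismatch settings, handling of reads with several matches, removal of copies and cluster filters are stated by no label or header. The deposited files hold 1 aligned read per line, with its first and last base, strand and a further position, taken as the crosslink position. It lay 1 base from the 5′ end in all reads of both libraries. The check covered this distance and not the side. No column holds counts: reads were counted from the lines, without scaling to depth (64820 and 569 reads).

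The members, windows and tests were chosen with earlier results of these data known. Reads were placed in tiles by their midpoint, and tiles touching a member window on its strand were left out. Cluster joining used 20 nt, intervals a level of 95%, and a count of 0 a limit of 3 reads. Fisher's exact test used a threshold of 0.05 on the adjusted p. Named genes were the 3 members, and other places were named by position as the nearest tiles in log2(count + 1). For Malat1 and Neat1, at 0, the nearest occupied tiles held 1 or 2 reads and are not listed. Motifs were counted in the GENCODE M21 transcripts of GRCm38, a step chosen after the data were seen. Its coordinates were not set against mm9, so no sequence under the Meg3 clusters is printed. The counting and the test were tried on simulated data, in which the planted library difference was a raised anti-Flag share. An excess in anti-Rbfox1 was not simulated. Scripts ran in Python 3.11.15 with scipy 1.17.1 for tests and intervals, pandas 2.3.3 and numpy 2.4.6 for counting, and matplotlib 3.10.9 for plots.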

Additional observations from a re-analysis of the deposited data

How the results depend on the processing

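Apart from the motif counts, of 53 alternative values 51 stayed within the interval, threshold or range set for them and 2 moved. All 28 alternative values for Malat1 and Neat1 were 0, as were all 6 for Meg3 in the anti-Flag library. Most of these were fixed in advance, because the settings regroup or subset the same 0 reads. Only widening the window or counting reads that cross its edge could have added reads. These values are among the 51 that stayed, so that count says little about how firm the results are. Counted by clusters instead of reads, the Meg3 share of the anti-Rbfox1 library was 0.0296%, from 3 of 10134 clusters, against 0.0478% of reads. The number of regions called between the libraries was 180, and 29 when only regions with at least 5 reads in both libraries together were tested, which removes most regions by construction (1853 against 6636 tested). With TGCATG in place of GCATG, an alternative chosen after the data were seen, the motif densities of all 3 transcripts were lower, as the longer motif is part of the shorter one's matches. The Meg3 adjusted p was 1 in Fisher's exact test under each tile, position and minimum-read setting in which it was run. That was fixed in advance too, because Meg3 kept 0 anti-Flag reads in all of them. With 0 anti-Flag reads, 433 anti-Rbfox1 reads were needed for an unadjusted p under 0.05 at the full read totals. These values are also among the 51 that stayed. No paired analysis was possible because the design has 1 library per antibody. Leaving out a replicate was not possible for the same reason. The 569 anti-Flag reads limit every comparison between the libraries.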
